A study of Mus musculus with 4 samples.

Results

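Matricellular proteins are secreted into the extracellular matrix, where most of them act less as structural parts than as signals to cells. They bind integrins and other receptors at the cell surface, and they bind collagens, proteases and growth factors. In muscle several of them are known from development, tendon attachment, repair and fibrosis. The 10 genes described here, of 32868 gene names in all, encode such proteins and fibronectin, a matrix glycoprotein that they bind or share receptors with. Spp1, Ibsp and Postn were chosen by their large rise in Nf1-KO libraries in these same data, so their values are given as a description and are not tested. The other 7, which are Cthrc1, Tnc, Thbs1, Thbs4, Ctgf, Sparc and Fn1, were named by family.

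RNA came from the tibialis anterior, a fast muscle at the front of the lower leg, of C57BL/6 mice at postnatal day 21. The Nf1-KO group was labelled Nf1flox/flox/Myf5+ and the control group, Het, Nf1flox/+/Myf5+, with 2 libraries each. Both groups thus carry at least 1 floxed Nf1 allele and the allele written Myf5+. Nf1 encodes neurofibromin, which turns off Ras signalling, and the series addresses what muscle growth and metabolism after birth require of it. The labels do not spell out Cre. A Cre at Myf5 acts in the myogenic lineage, so other cells of the muscle need not have lost Nf1. The labels do not say whether the libraries of a group came from separate animals, so p-values measure the spread between these libraries, which may be technical.

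Values are RPKM, reads scaled to gene length and to the library's total, which allow levels of different genes to be compared. The unit was inferred from the values. The total depth of each library is not given in the files, and the summed RPKM ran from 532146 to 546969 per library. Replicates were close: over the 9055 genes with a mean of 1 RPKM or more, their median coefficient of variation was 2.94% (Het) and 2.73% (Nf1-KO). The fast muscle genes that define this tissue were abundant in every library, with Ckm at 5562.50 RPKM or more, Myh4 at 3427.52 or more and Actn3 at 1039.24 or more. Nf1 itself was 1.09 and 1.01 RPKM in Het and 0.89 and 0.85 RPKM in Nf1-KO, a fall of 0.18 on the log2(RPKM + 1) scale (SE 0.0569, limma adjusted p = 0.041). This value counts the whole gene, including what lies outside the floxed part, so it checks the labels only in part.

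The promoters of Spp1, Ibsp and Postn, which were higher together, and of Thbs4, which was lower, are shown for the 250 bases before the transcription start. They are RefSeq sequences of GRCm38.p6, read 5′ to 3′ on the gene's strand, while the submitters' processing notes name mm9. Capitals mark matches to the motifs given after them.
Spp1 (chr5:104434861-104435110, + strand): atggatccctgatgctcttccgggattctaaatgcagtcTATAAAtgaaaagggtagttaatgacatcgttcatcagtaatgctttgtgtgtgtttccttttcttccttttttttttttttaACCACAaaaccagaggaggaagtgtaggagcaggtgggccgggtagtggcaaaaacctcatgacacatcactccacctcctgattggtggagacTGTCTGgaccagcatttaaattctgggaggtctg
Ibsp (chr5:104299037-104299286, + strand): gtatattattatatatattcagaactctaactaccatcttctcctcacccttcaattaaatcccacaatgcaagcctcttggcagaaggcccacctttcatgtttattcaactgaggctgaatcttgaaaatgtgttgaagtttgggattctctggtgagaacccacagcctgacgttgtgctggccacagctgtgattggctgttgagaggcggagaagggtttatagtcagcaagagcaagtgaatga
Postn (chr3:54360857-54361106, + strand): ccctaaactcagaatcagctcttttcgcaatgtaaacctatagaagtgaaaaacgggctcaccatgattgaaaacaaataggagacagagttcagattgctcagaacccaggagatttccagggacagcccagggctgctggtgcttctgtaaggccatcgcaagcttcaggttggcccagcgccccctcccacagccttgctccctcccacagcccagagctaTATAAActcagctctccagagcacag
Thbs4 (chr13:92794819-92795068, - strand): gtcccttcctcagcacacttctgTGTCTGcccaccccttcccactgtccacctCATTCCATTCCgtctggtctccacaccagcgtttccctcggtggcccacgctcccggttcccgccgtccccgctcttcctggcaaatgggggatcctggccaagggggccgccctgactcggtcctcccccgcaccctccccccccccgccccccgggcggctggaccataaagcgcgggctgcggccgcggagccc

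Windows of 300 bases, reaching 50 bases past the start, were found for 6 of the 10 genes (these 4, Sparc and Tnc). They were searched on both strands for TGANTCA (AP-1), TGTGGT (Runx), GGAATG (TEAD), CAGACA (Smad) and the CArG box, and on the gene's strand for TATAAA. The letters of AP-1 and the CArG box were in none of the 6, and in 7.93% and 1.57% of all 27025 promoter windows. In Spp1 the Runx letters began 128 bases before the start and the Smad letters 34 bases before it, both on the opposite strand. Spp1 also held TATAAA 211 bases before the start. Postn held TATAAA 26 bases before its start, the usual place of a TATA box. The Ibsp window held none of the 6 motifs. Thbs4 held the TEAD letters at 2 overlapping places, 197 and 192 bases before the start, and the Smad letters 227 bases before it. Among all windows, Runx letters were in 16.9%, TEAD in 14.6%, Smad in 21% and TATAAA in 8.88%. These matches describe the letters only, and no binding was measured.

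Spp1 and Ibsp encode acidic phosphoproteins, osteopontin and bone sialoprotein, that bind integrins and hydroxyapatite and are best known from bone. Spp1 was 0.41 and 0.31 RPKM in Het and 14.19 and 14.05 RPKM in Nf1-KO. Both Nf1-KO libraries were thus far above both Het libraries, and the ratio of the group means was 39.2. Ibsp was 0.01 and 0.02 RPKM in Het against 8.65 and 9.07 RPKM in Nf1-KO. In Het, Ibsp was close to the last printed decimal, so no ratio is given for it. Set against the mean normalized counts in the authors' deposited table, the Het level of Ibsp stood for about 1.34 normalized counts and that of Spp1 for about 27.3. In Nf1-KO they stood for about 792 and 1070. The differences in log2(RPKM + 1) were 3.42 (SE 0.0555) for Spp1 and 3.24 (SE 0.0534) for Ibsp. With 0.1 in place of 1 they were 4.87 and 6.23, since the added constant compresses low values. The authors' deposited table listed changes on the log2 scale of 5.22 (SE 0.225) for Spp1 and 8.99 (SE 0.844) for Ibsp. An exon of Spp1 overlaps one of Gm42793 on the same strand in GENCODE M21.

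Postn encodes periostin, a fasciclin-domain protein of tendon, periosteum and healing tissue that helps cross-link collagen. It was 1.32 and 1.07 RPKM in Het and 9.33 and 9.82 RPKM in Nf1-KO. The groups did not overlap, and the ratio of means was 8.01. The difference in log2(RPKM + 1) was 2.20 (SE 0.0678), and 2.82 with 0.1 as the constant. The authors' deposited table listed 2.92 on the log2 scale for it (SE 0.123).

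**Figure D1:**
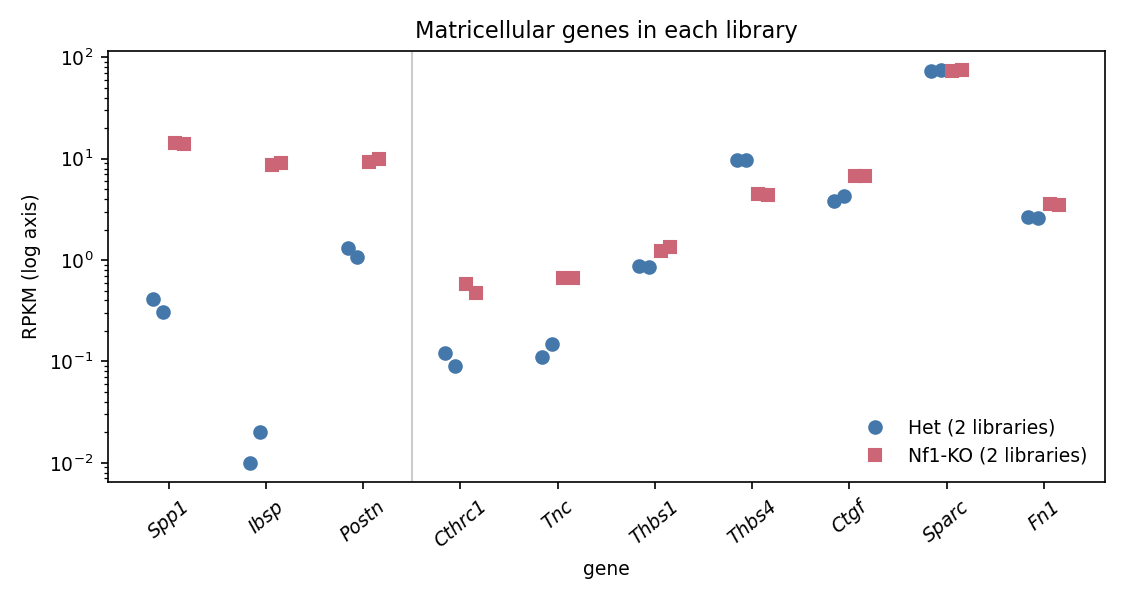
RPKM (log axis) of the 10 matricellular genes in each of the 4 libraries, with circles for Het and squares for Nf1-KO. The grey line parts Spp1, Ibsp and Postn, chosen for their rise, from the other 7, of which Sparc overlaps between groups and Thbs4 is lower in Nf1-KO.

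The order of the 10 genes by level differed between the groups. In Het it was Sparc, Thbs4, Ctgf, Fn1, Postn, Thbs1, Spp1, Tnc, Cthrc1 and Ibsp. In Nf1-KO it was Sparc, Spp1, Postn, Ibsp, Ctgf, Thbs4, Fn1, Thbs1, Tnc and Cthrc1. Neighbours in these orders did not overlap between libraries, except Tnc and Cthrc1 in Het. The summed RPKM of the 10 genes was 92.5 and 93.5 in Het and 123 and 124 in Nf1-KO. Spp1, Ibsp and Postn made up 1.88% and 1.5% of that sum in Het and 26.1% and 26.5% in Nf1-KO. Sparc, the most abundant, made up 79.4% and 79.6% in Het and 59.8% in both Nf1-KO libraries.

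The other 7 genes were put to the limma test over all 10690 genes that reached 0.5 RPKM in at least 2 libraries, after scaling between libraries, with Benjamini-Hochberg adjustment and a threshold of 0.05. Of all these genes 50.3% were called, 24.9% as higher and 25.4% as lower in Nf1-KO, so a call by itself is common here. Higher genes were 49.5% of all calls, and 66.6% with values not scaled. Of the 7 genes, 6 passed the filter, and 4 of them rose (Tnc, Ctgf, Fn1 and Thbs1) while 2 fell (Thbs4 and Sparc). Sparc fell only relative to the other genes: with values not scaled, its log2 fold change was 0.00184. Tnc, like Spp1 and Ibsp, passed only through its level in Nf1-KO, so it could hardly have passed without differing. In the deposited values, 8 of the 10 genes were above both Het libraries in both Nf1-KO libraries, 1 was below and 1 overlapped. The 8 include Spp1, Ibsp and Postn, which were chosen for that rise. Of the 7 genes not chosen for it, those above were Cthrc1, Tnc, Thbs1, Ctgf and Fn1. Thbs4 was below and Sparc overlapped. Of the tested genes, which leave out Cthrc1, 49.8% were above and 27.4% below in that way. Since bulk RNA was sequenced, fewer cells of a type and less RNA per cell cannot be told apart. Limma changes given as log2 are differences in log2(RPKM + 1) unless another constant is named. Adding 1 understates the changes of low genes.

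Tnc encodes tenascin-C, a large hexameric protein of tendon, embryonic tissue and wounds that weakens cell adhesion to fibronectin. Tnc was 0.11 and 0.15 RPKM in Het and 0.66 RPKM in both Nf1-KO libraries. The groups did not overlap. Tnc differed by 0.53 on the log2(RPKM + 1) scale (SE 0.0574), given with no p since it passed the filter only through Nf1-KO. With 0.1 as the constant the rise was 1.66, and the authors' deposited table gave 2.17 (SE 0.27). An exon of Tnc overlaps one of the opposite-strand transcript 8030451A03Rik.

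Cthrc1 encodes a secreted collagen triple helix repeat protein made by activated fibroblasts. Cthrc1 was 0.12 and 0.09 RPKM in Het and 0.58 and 0.47 RPKM in Nf1-KO, so it was higher in both Nf1-KO libraries. It missed the filter, since only 1 library reached 0.5 RPKM, and the levels stood for about 5.66 and 28.3 normalized counts. Without the filter its log2 fold change was 0.44 (SE 0.0465, limma adjusted p = 0.01). The authors' deposited table gave 2.27 (SE 0.76) with an adjusted p of 0.011.

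Thbs1 and Thbs4 encode thrombospondins, calcium-binding proteins with different roles. Thrombospondin-1 activates latent TGF-beta and inhibits the growth of vessels, and thrombospondin-4 belongs to tendon, the muscle attachment site and the muscle fibre's matrix. Thbs4 was 9.69 and 9.73 RPKM in Het and 4.47 and 4.41 RPKM in Nf1-KO. Its Het level was 2.19 times its Nf1-KO level, with no overlap. Thbs4 fell by 1.06 on the log2 scale (SE 0.0389, limma adjusted p = 6.1e-06), the opposite direction to the 8 genes that were higher. The authors' deposited table gave -1.24 (SE 0.0883).

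Thbs1 was 0.87 and 0.85 RPKM in Het and 1.23 and 1.33 RPKM in Nf1-KO. The groups did not overlap, and the ratio of means was 1.49. The rise was 0.25 on the log2(RPKM + 1) scale (SE 0.0566, limma adjusted p = 0.013). It was 0.44 with 0.1 as the constant and 0.47 (SE 0.167) in the authors' deposited table. Without the second Nf1-KO library the adjusted p was 0.072. An exon of Thbs1 overlaps one of the opposite-strand Gm29233.

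Ctgf, also named Ccn2, encodes connective tissue growth factor, a CCN protein that is a common target of TGF-beta and YAP signalling and promotes fibrosis. Ctgf was 3.83 and 4.28 RPKM in Het and 6.82 and 6.73 RPKM in Nf1-KO. The ratio of means was 1.67, and the groups did not overlap. Ctgf rose by 0.54 on the log2 scale (SE 0.056, limma adjusted p = 0.00044), and by 0.63 in the authors' deposited table. An exon of Ctgf overlaps one of the opposite-strand transcript Gm15270.

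Fn1 encodes fibronectin, the adhesive glycoprotein that cells assemble into fibrils through integrins. Fn1 was 2.68 and 2.62 RPKM in Het and 3.61 and 3.48 RPKM in Nf1-KO. It rose by 0.25 on the log2 scale (SE 0.0492, limma adjusted p = 0.0075), with no overlap between groups. The ratio of means was 1.34, against 39.2 for Spp1. An exon of Fn1 overlaps one of the opposite-strand Apol7d, which had a mean of 0.00 RPKM.

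Sparc encodes osteonectin, a collagen-binding glycoprotein and the most abundant of the 10 at this age. Sparc was 73.50 and 74.38 RPKM in Het and 73.69 and 74.38 RPKM in Nf1-KO, so the deposited values overlapped fully. After scaling, which divided Het by factors of 0.969 and 0.967 and Nf1-KO by 1.03, they were 75.9 and 76.9 against 71.5 and 72.2. The scaled log2 fold change was -0.09 (SE 0.0216, limma adjusted p = 0.014), and it was 0.00184 (adjusted p = 0.95) with values as deposited. The adjusted p was also above 0.05 without the second Het library (0.068) and without the first Nf1-KO library (0.066). The authors' deposited table, which also normalizes between libraries, gave -0.11 (SE 0.0326) with an adjusted p of 0.0053. All 7 genes were under 0.05 in the authors' deposited table, as were 31.6% of its 13985 genes.

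**Figure D2:**
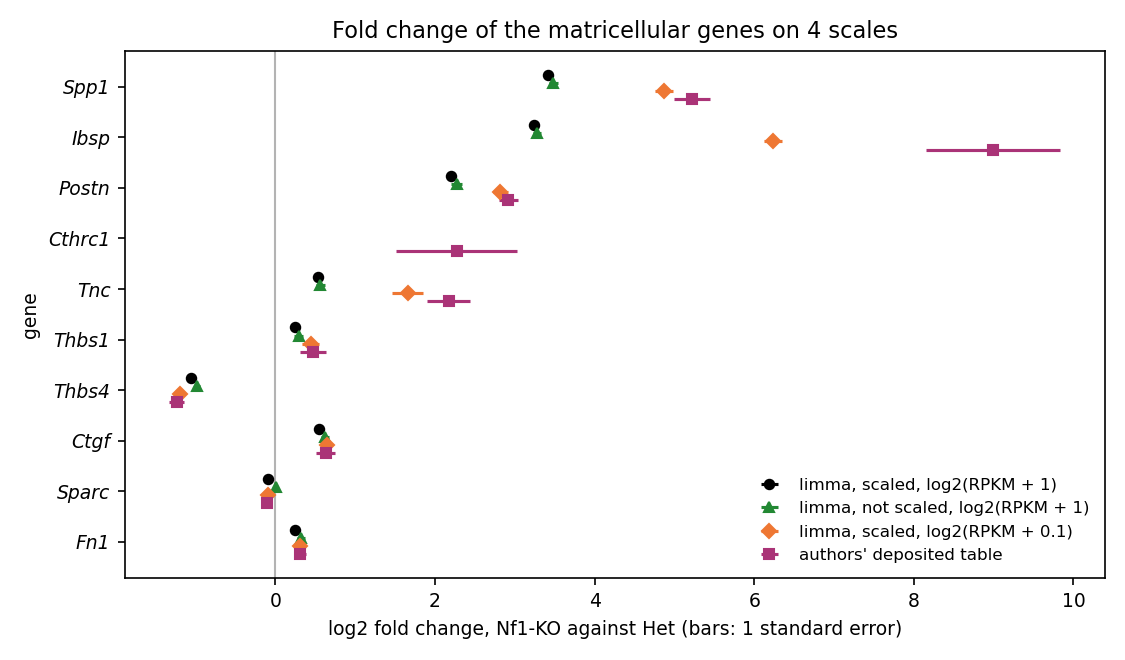
Log2 fold change of Nf1-KO against Het for each gene on 4 scales, with bars of 1 standard error. The 3 limma scales and the authors' deposited table have the same sign for each gene shown on them except Sparc, which is at 0.00184 without scaling, and they spread widest for Ibsp, from 3.24 to 8.99, while Cthrc1 has only the value of the authors' deposited table, since it missed the filter.

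The families to which these genes belong were described through 39 further genes, of which 25 were tested. Of these 16 rose, 5 fell and 4 did not pass, beside 24.9% higher and 25.4% lower over all tested genes. The median log2 fold change of the 25 was 0.31, against 0.00 over all tested genes. With values not scaled, 16 were called higher and 3 lower (median 0.36, against 0.07 over all), where 66.6% of all calls were higher. Of the 25 genes, Tnn, Wisp2 and Fbln1 passed the filter only through Nf1-KO and Fbln7 only through Het, so their calls were nearly fixed by the filter.

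Among tenascins, Tnn, which encodes tenascin-W, known from bone and its precursors, was 0.01 and 0.02 RPKM in Het and 1.45 and 1.59 RPKM in Nf1-KO. Its difference in log2(RPKM + 1) was 1.28 (SE 0.0593), given with no p since the filter chose it through Nf1-KO. The authors' deposited table gave 6.44 (SE 0.517) for Tnn. Tnr was listed at 0 in all 4 libraries. Among thrombospondins, Thbs2, an inhibitor of vessel growth, was 0.54 and 0.44 RPKM in Het and 2.05 and 2.04 RPKM in Nf1-KO, a rise of 0.98. Thbs3 rose by 0.31, though its exons overlap those of Mtx1 on the opposite strand. Of the thrombospondin genes tested, Thbs4 was thus the one that fell, and Comp missed the filter.

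All 3 further CCN genes tested rose, Wisp2 among them. Cyr61, a target of YAP like Ctgf, was 10.90 and 10.86 RPKM in Het and 15.90 and 14.15 RPKM in Nf1-KO, a rise of 0.34 (SE 0.0555, limma adjusted p = 0.0031). Nov rose by 0.32, with an adjusted p of 0.059 in the authors' deposited table. Tgfbi, the closest relative of Postn, was 3.69 and 3.87 RPKM in Het and 5.29 and 4.94 RPKM in Nf1-KO. Its rise on the log2 scale was 0.28 (SE 0.0521, limma adjusted p = 0.0056), beside the difference of 2.20 in Postn.

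The SPARC family split in direction, with 2 genes higher and 2 lower. Sparcl1, nearly as abundant as Sparc, was 56.05 and 56.09 RPKM in Het and 50.27 and 49.58 RPKM in Nf1-KO, a fall of 0.26 on the log2 scale (limma adjusted p = 0.00025). Smoc2 fell by 0.18 after scaling, with an adjusted p of 0.063 in the authors' deposited table. With values not scaled, 1 of these SPARC family genes was called lower in place of 2. Spock2 rose by 1.01, from 0.87 and 0.72 to 2.59 and 2.90 RPKM, and Fstl1 rose by 0.39.

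Of 12 tested genes of fibulins and other adhesive glycoproteins, 7 rose, 3 fell and 2 did not pass. Mgp, an inhibitor of calcification, rose from 17.90 and 18.19 to 31.53 and 31.98 RPKM, by 0.69 on the log2 scale (SE 0.0281, limma adjusted p = 9.2e-06). Mfge8, an integrin ligand, rose by 0.24. Vtn, which encodes the integrin ligand vitronectin, was 8.96 and 10.05 RPKM in Het and 6.78 and 7.36 RPKM in Nf1-KO, a fall of 0.46. Efemp1 fell by 0.18, with an adjusted p of 0.36 in the authors' deposited table.

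**Figure D3:**
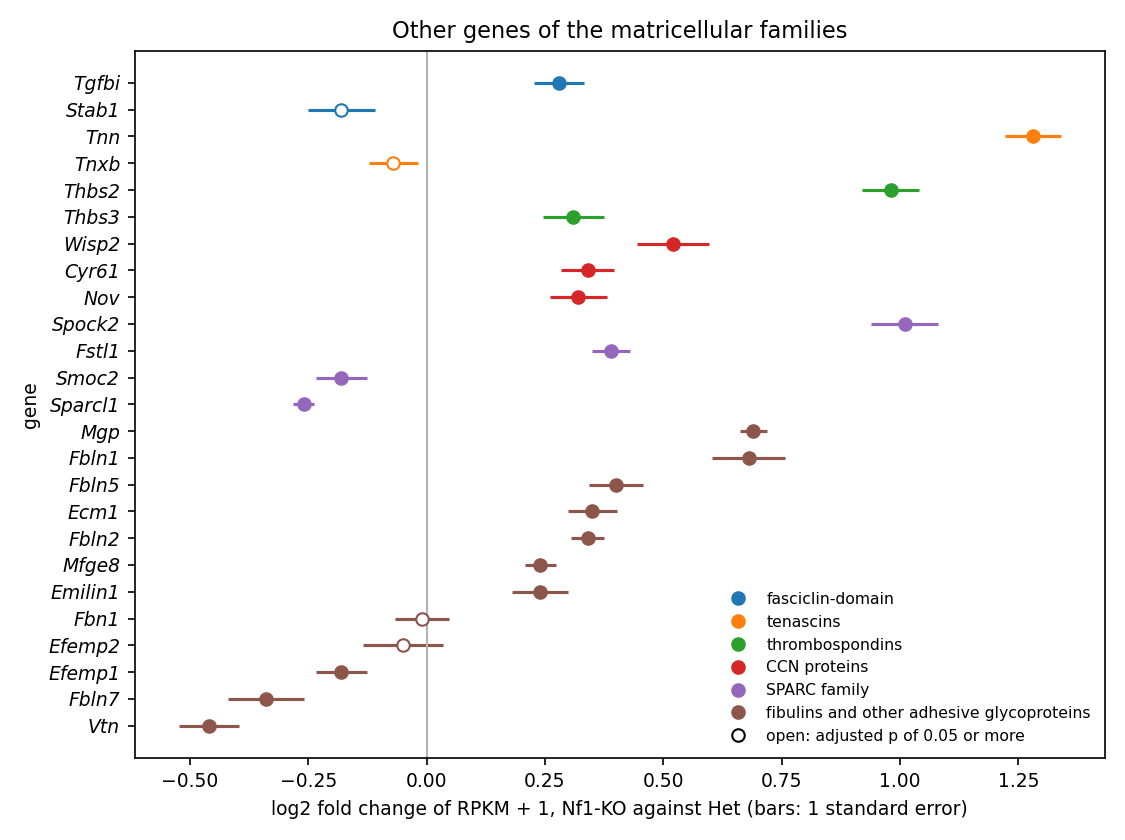
Log2 fold change of RPKM + 1 (Nf1-KO against Het, bars of 1 standard error) of the 25 tested family genes other than the 10 described. Filled points are past an adjusted p of 0.05; Tnn, Spock2 and Thbs2 lie farthest to the right and Vtn farthest to the left.

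Spp1 and Ibsp lie in a run of related genes of mouse chromosome 5. In RefSeq's GRCm38.p6 annotation the protein-coding genes there are, in order, Sparcl1, Dspp, Dmp1, Ibsp, Mepe, Spp1 and Pkd2. Of the neighbours only Sparcl1 and Pkd2 were tested, and neither differed by as much as Spp1 and Ibsp. Mepe was listed at 0 in all 4 libraries and Dspp in 3 of them. Dmp1 was 0.02 and 0.05 RPKM in Het and 0.09 and 0.16 RPKM in Nf1-KO, too low to be tested. The flanking Pkd2 rose by 0.19 (limma adjusted p = 0.021), from 2.76 and 2.91 to 3.59 and 3.60 RPKM. Its adjusted p in the authors' deposited table was 0.064. The flanking Sparcl1 fell as given above.

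Of 18 tested receptor genes, 4 rose, 4 fell and 10 did not pass, beside 24.9% higher and 25.4% lower over all tested genes, so these shares lie near the background. With values not scaled 10 rose and 3 fell, but higher genes then made up 66.6% of all calls, against 49.5% after scaling. Cd36, a thrombospondin receptor that also takes up fatty acids, rose from 83.10 and 82.89 to 220.83 and 222.62 RPKM, by 1.31 on the log2 scale (SE 0.0187, limma adjusted p = 3.2e-07). Itga7, the laminin-binding integrin chain of muscle fibres, rose by 0.52. Among the integrin chains for osteopontin, periostin and fibronectin, Itgb1 fell by 0.19 and Itgav by 0.23 on the log2 scale, while Itgb5 (0.04) and Itga5 (0.13), both named after their values were seen, did not pass.

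Itgb3 and Itga4, integrin chains with larger differences, were picked out after their values were seen, and each passed the filter through 1 group only, so no p is given for them. Itgb3, the partner of Itgav in a main osteopontin receptor, was 0.13 and 0.12 RPKM in Het and 0.65 and 0.56 RPKM in Nf1-KO. Its difference in log2(RPKM + 1) was 0.49, and 2.14 was its log2 change in the authors' deposited table. Itga4, whose product binds fibronectin and osteopontin, was 1.91 and 1.94 RPKM in Het and 0.47 and 0.48 RPKM in Nf1-KO. For Itga4 these values were -1.03 and -2.12. Cd44, another osteopontin receptor and likewise picked out afterwards, was 0.72 and 0.63 RPKM in Het and 0.87 and 0.89 RPKM in Nf1-KO and did not pass (log2 fold change 0.13, limma adjusted p = 0.12). Exons of Itga4, Itga7 and Itgav overlap exons of opposite-strand genes, of which Cerkl had a mean of 0.03 RPKM and Mettl7b of 0.04 RPKM.

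Inside the cell, 14 adhesion signalling genes were tested, beside 24.9% called higher and 25.4% lower over all tested genes. Of the 14, 2 rose, 7 fell and 5 did not pass. With values not scaled, 3 rose and 4 fell, where 66.6% of all calls were higher. Src, among those that fell, passed the filter only through Het, and its adjusted p in the authors' deposited table was 0.1. Fermt2, an activator of integrins, fell from 72.25 and 72.38 to 56.57 and 54.77 RPKM, by 0.46 on the log2 scale (limma adjusted p = 3.1e-05). Tln1, one of the talins that link integrins to actin, fell by 0.38, while Tln2, the other talin, rose by 0.36. Exons of Tln1 overlap those of Creb3 on the opposite strand, which had a mean of 9.05 RPKM. Lims1 rose by 0.44.

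Of 12 tested enzymes that modify or cut these proteins, 7 rose, 3 fell and 2 did not pass, with Mmp9 passing the filter only through Nf1-KO. Over all tested genes 24.9% were higher and 25.4% lower. Fam20c, the kinase that phosphorylates osteopontin and bone sialoprotein, fell from 5.38 and 5.49 to 3.99 and 3.92 RPKM, by 0.45 on the log2 scale (limma adjusted p = 0.00033). Adamts1 fell by 0.45. Furin and Mmp2 rose by 0.16 and 0.28.

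Among 10 tested genes that respond to TGF-beta or YAP, 7 rose and none fell, while Skil, Tgfb1i1 and Lats2 did not pass. Over all tested genes 24.9% were higher and 25.4% lower. The list was written with earlier results of these data known, and a response of the pathway was not tested. Amotl2 rose by 0.99, from 2.65 and 2.75 to 6.75 and 6.76 RPKM (limma adjusted p = 1.4e-05), and Cyr61 as given above. The list shares Cyr61 and Tgfbi with the families, so it is not separate evidence.

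Several of the 10 genes are also known from bone, tendon or macrophages, so marker genes of those and other cells are given beside them. Counts of markers that rose or fell stand beside 24.9% higher and 25.4% lower over all tested genes. Of 10 osteoclast genes, 4 were tested and 3 rose, and the summed RPKM of the list was 7.58 to 7.65 in Het and 25.9 to 26.7 in Nf1-KO. The proteases Ctsk and Mmp9 and the phosphatase Acp5 carried this: Ctsk was 1.02 and 0.91 RPKM in Het and 9.54 and 10.04 RPKM in Nf1-KO. Acp5 was 0.22 and 0.20 against 6.51 and 5.33 RPKM, and Mmp9 0.13 and 0.06 against 3.41 and 3.80 RPKM. Acp5 and Mmp9 passed the filter only through Nf1-KO, so the count of 3 rests on the filter for both of them. Dcstamp was listed at 0 in all 4 libraries and Nfatc1 did not pass. The rest of the list was too low to be tested. Of it, Atp6v0d2 (0.02 and 0.01 against 0.45 and 0.45 RPKM) and Oscar (0.04 and 0.07 against 0.25 and 0.22 RPKM) were higher in both Nf1-KO libraries. So was Tnfrsf11a, while Calcr was lower in both and Ocstamp overlapped.

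Of 10 osteoblast and osteocyte genes, 2 were tested. Alpl rose by 0.22, and Bglap, 0.00 and 0.15 against 0.62 and 0.66 RPKM, passed the filter only through Nf1-KO. The summed RPKM was 5.03 to 5.23 in Het and 7.58 to 7.93 in Nf1-KO, most of it Alpl. Sp7, a defining osteoblast factor, was listed at 0 in both Het libraries and was 0.13 and 0.16 RPKM in Nf1-KO. Runx2 was 0.04 and 0.07 against 0.08 and 0.16 RPKM. The part of bone cells in the higher Spp1, Ibsp and Postn was not tested.

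Of 9 tenocyte genes besides Thbs4, 3 were tested. Fmod rose from 3.04 and 2.84 to 6.14 and 5.53 RPKM. Col11a1, which passed the filter only through Nf1-KO, was 0.02 and 0.03 against 0.65 and 0.71 RPKM. Scx, the defining tendon factor, fell from 2.70 and 2.42 to 1.72 and 1.74 RPKM, by 0.45 on the log2 scale (limma adjusted p = 0.0014), in the direction of Thbs4. Tnmd, the other defining tendon gene, was 0.39 and 0.51 RPKM in Het and 0.37 and 0.46 RPKM in Nf1-KO, so its groups overlapped. The summed RPKM of the 9 was 6.93 to 7.04 in Het and 10.1 to 10.6 in Nf1-KO, and the part of tendon in the values of Thbs4, Tnc and Postn was not tested.

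Of 10 macrophage genes, 6 were tested and 4 rose, with a summed RPKM of 12.8 to 12.9 in Het and 33 to 33.3 in Nf1-KO, most of it Lyz2. The others that rose were Csf1r, Cd68 and C1qa, the last with an adjusted p of 0.098 in the authors' deposited table. Emr1 was listed at 0 in all 4 libraries, and Mrc1 and Cd163 did not pass. Of those too low to be tested, Itgam (0.08 and 0.12 against 0.34 and 0.44 RPKM) and Gpnmb were higher in both Nf1-KO libraries, and Fcgr1 overlapped. All 7 tested Schwann cell genes rose (summed RPKM 16.4 to 16.7 against 35.5 to 37.3), of which 3 passed the filter only through Nf1-KO. Of 9 tested fibroblast genes 5 rose and Cd34 fell (120 to 124 against 145 to 147). Of 8 chondrocyte genes 2 were tested, of which Col9a1 fell and Sox9 did not pass. The sums overlapped at 1.45 to 1.59 and 1.09 to 1.51 RPKM, with Matn1 and Matn3 at 0 in all 4 libraries. Acan (0.01 and 0.00 against 0.09 and 0.13 RPKM) and Hapln1 (0.00 and 0.01 against 0.06 and 0.08) were too low to be tested. Both were higher in the authors' deposited table, by 4.17 (SE 0.927) and 3.47 (SE 1.24). Endothelial genes split into 3 higher and 2 lower of 8 (92.3 to 93.3 against 101 to 103), smooth muscle and pericyte genes into 3 and 2 of 7, and satellite cell genes into 3 and 1 of 6 (23.4 to 24.4 against 28 to 28.3). The smooth muscle sum, 1090 against 1310 to 1330, is nearly all Des, which muscle fibres also express. Of the fibre genes 3 rose and 4 fell of 8, with sums of 30100 to 30500 against 25100 to 25300. The part of these cells in the results was not tested.

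**Figure D4:**
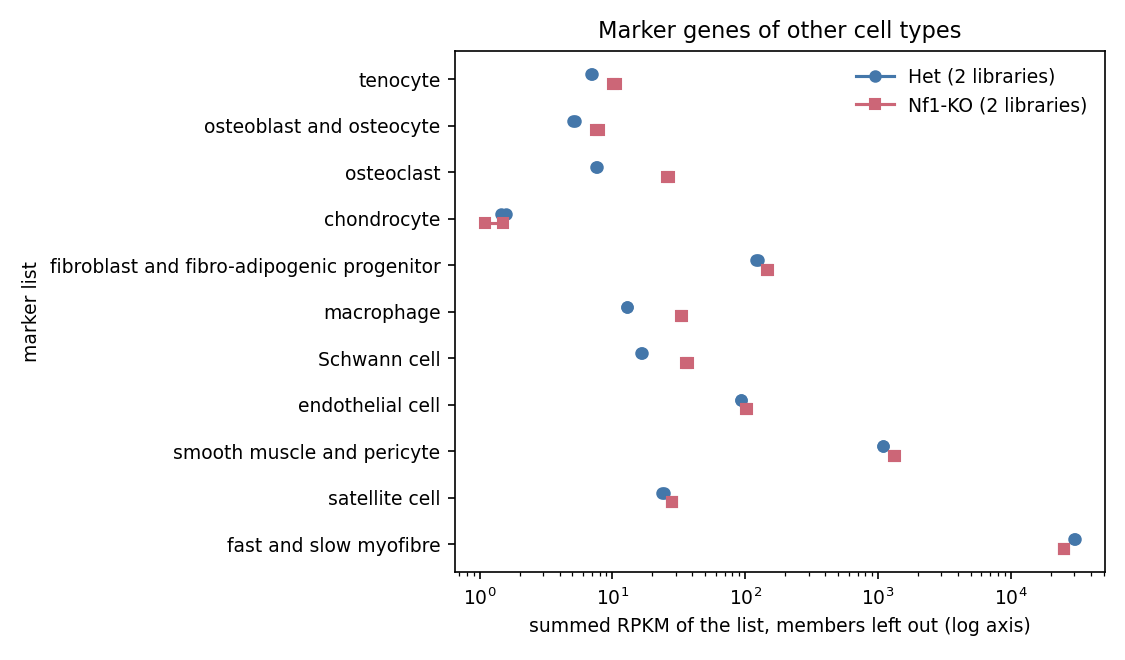
Summed RPKM (log axis) of each marker list, leaving out the 10 genes described, with circles for the 2 Het and squares for the 2 Nf1-KO libraries. The osteoclast, macrophage and Schwann cell lists lie farthest apart between groups, and the chondrocyte list overlaps.

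The tested genes nearest to Spp1 in profile were Ibsp, Mmp13, Sln, Mettl21e and Acp5, by the Euclidean distance of centred log2(RPKM + 1) values over the 4 libraries (0.209 to 0.973). Mmp13, a collagenase of cartilage and bone, was 0.01 and 0.06 RPKM in Het and 8.48 and 8.75 RPKM in Nf1-KO. The nearest to Postn were Serpina3n, Idh2, Tbc1d4, Gnmt and Mmp9 (distances 0.0783 to 0.183). Serpina3n, a secreted protease inhibitor, was 0.33 and 0.24 RPKM in Het and 4.68 and 5.28 RPKM in Nf1-KO. With 4 libraries in 2 groups, nearness here is mostly a like size of difference between the groups.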

How the data were processed

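Per the labels' protocols, total RNA of snap-frozen muscle was purified on RNeasy columns and made into TruSeq libraries. The submitters' processing notes name STAR 2.4.2a, DESeq2 and mm9 without a role. The counting program, annotation and strandedness are not given in the sources used here. The authors deposited 1 value per gene and library without a unit, read here as RPKM because the values are not whole and sum to different totals. The authors' deposited table has, per the file headers, a signal (mean of normalized counts), a log2 fold change with its standard error, a test score (their quotient) and p-values. Its direction was read from the values: of 4051 genes called in both tests, 4050 had the same sign.

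Of 34682 rows, 33 with a number for a name were left out, and of 1781 further copies those with a lower mean were dropped, leaving 32868 names. None of the 10 genes had copies. Of the named rows 44.7% were 0 in all 4 libraries. limma 3.58.1 (R 4.3.3, variance trend) was run on log2(RPKM + 1) after trimmed-mean scaling without weights (the outer 30% by log ratio and 5% by abundance removed on each side), for genes of at least 0.5 RPKM in 2 libraries, and tested on simulated data. Fold changes on this scale understate changes of low genes. An exact permutation test of 2 against 2 cannot go below 0.333. Counts behind RPKM levels are estimates, from the authors' mean normalized count per mean RPKM. No batch is labelled.

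Named genes were the 10, of each list the 2 most abundant called genes in each direction, marker genes, and the 5 nearest profiles of Spp1 and Postn. Genes and lists were chosen with earlier results of these data known. Names were matched to GENCODE M21 for exon overlap, where all 70 genes looked for were found.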

Additional observations from a re-analysis of the deposited data

How the results depend on the processing

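Under 11 alternatives, 87 of 95 values of the 9 genes that passed the filter stayed on their side of 0 and of the threshold, or, for Spp1, Ibsp and Postn, moved by less than the replicate spread. Sparc turned to 0.00184 (limma adjusted p = 0.95) with values as deposited, since its level was the same in both groups and only scaling moved it. It also missed the threshold with no variance trend (-0.09, limma adjusted p = 0.089), without the second Het library (-0.08, 0.068) and without the first Nf1-KO library (-0.09, 0.066). Thbs1 missed it without the second Nf1-KO library (0.21, 0.072). Spp1, Ibsp and Postn moved to 4.87, 6.23 and 2.82 with a pseudocount of 0.1.

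Of the 7 genes not picked for their rise, 6 were called, and 5 to 6 when each library was left out in turn. The calls over all genes went from 5372 to between 4212 and 4420 in the same way, and those among other family and pathway genes from 53 to between 43 and 44. Where a library was left out, the lone sample of its group was assumed to vary like the other group. With values as deposited, 66.6% of all calls were higher, against 49.5% after scaling. The call of Tnc, among the 6, was nearly fixed by the filter, which it passed only through Nf1-KO.

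The labels do not say whether libraries that share a replicate number are paired. Over 10690 genes their deviations from the group means correlated at -0.0179. With 2 libraries per group this cannot settle whether they are paired. A replicate block in the fit gave 5231 called genes, 6 of the 7 among them, and 51 of the family and pathway genes. The low depth behind Ibsp and Cthrc1 in Het leaves the size of their difference uncertain.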
